A study of Mus musculus with 7 samples.

Results

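Potassium channel genes are described here in 2 populations of cells sorted from mouse bone marrow. The members are the genes whose only symbol in the probe annotation of the array begins with Kcn, followed by further letters and a digit. This rule took 84 of the 18193 genes that have a probe set with 1 symbol, measured by 167 probe sets. They comprise 81 protein-coding genes and 3 non-coding RNAs that carry the name of a channel locus. The rule used no measured value. Channel genes of the family without such a probe set were not analysed here.

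Potassium channels are membrane proteins that let potassium ions pass down their gradient, which usually moves the membrane potential to more negative values. Voltage-gated channels open on depolarisation, calcium-activated channels open when cytosolic calcium rises, inward rectifiers pass current more easily into the cell than out of it, and K2P channels, with a pair of pore domains in each subunit, carry background currents. In blood cells these channels set the driving force for calcium entry and control cell volume, and in stromal cells they set the resting potential.

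Both populations came from wild-type C57Bl/6J mice of 6 to 12 weeks, and both lacked CD45 and the lineage antigens. The CD54+CD31-BP1+ cells are labelled stromal and have 4 arrays. The CD54-CD31+ cells are labelled endothelial and have 3 arrays. Between 1800 and 10000 cells were sorted for each array, their RNA was amplified and hybridised to an Affymetrix mouse whole-genome array, and the comparison asks how the populations differ. The gates define the populations, and the labels do not say whether animals were pooled or how the replicates arose, and every p below therefore covers no more than the spread among these arrays, which may be technical.

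The labels were checked against marker genes. All 9 markers of reticular stroma, which supplies CXCL12 to blood progenitors, passed toward the stromal side, where their mean lay between 13.23 and 13.41 against 5.35 to 6.63. Of 9 endothelial markers only 4 could be tested, and these were higher on the endothelial arrays. Cdh5, Emcn, Tek and Tie1, which define endothelium, did not exceed the 40th percentile of any array. All 9 megakaryocyte and platelet markers were higher on the endothelial arrays, at a mean of 13.50 to 13.84 against 5.75 to 8.45, and 6 of 7 pan-leukocyte markers were higher there. In what follows "endothelial" is therefore the label of the arrays only. In such bulk samples, fewer cells of a type and less RNA per cell cannot be told apart. The 18 probe sets for spiked-in hybridisation controls averaged 11.33 and 11.37 on endothelial 2 and 3 against 9.51 to 9.75 on the other arrays, and values with endothelial 1 alone are given for channel genes whose call they change, or which passed and moved by over 1.5 times.

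Values are deposited log2 expression values, and differences are stromal minus endothelial, so a negative difference means a higher value on the endothelial arrays. A gene was tested if its value exceeded the array's 40th percentile on at least 3 of the 7 arrays. That percentile was 5.48 to 5.52 on the stromal and 5.68 to 5.79 on the endothelial arrays, so the dim end lay higher on the endothelial arrays. A gene passed the threshold with a limma adjusted p under 0.05 over all 13995 genes tested and a difference of at least 1. Of the 84 members 53 were tested. The other 31 stayed below the filter. Of the tested members 3 (Kcnj5, Kcnk5 and Kcnk10) reached the filter on endothelial arrays alone and 1 (Kcnk2) on stromal arrays alone, and those had to differ.

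Of the 53 tested members 15 passed the threshold, 3 toward the stromal and 12 toward the endothelial side. Over all genes tested 47% passed, 30.9% toward the stromal and 16.1% toward the endothelial side. By adjusted p alone 42 of the 53 passed, against 68.5% of all genes. No overlap between the groups was seen in 4 members with higher stromal and 38 with higher endothelial values, together 42 of 53, against 35.7%, 32.7% and together 68.4% of all genes. The stromal genes were Kcnk2, Kcne4 and the non-coding Kcnq1ot1. The endothelial genes were Kcnj5, Kcnab2, Kcnn4, Kcnn2, Kcnj11, Kcnh7, Kcng2, Kcnn3, Kcnt1, Kcnk10, Kcnf1 and Kcnj9. The median difference was -0.75 for the tested members and 0.19 for all genes tested. Most members are dim on these arrays, and dim genes in general read higher on the endothelial arrays. Of the tested members 31 had a mean under 6.5 over the 7 arrays. In that band the median difference was -0.76 for members and -0.66 for all genes, and 8 of the 31 were higher on the endothelial arrays and 0 on the stromal arrays, against 21.4% and 10.2% of all genes of the band. In the band from 6.5 to 8, 2 of 16 members passed toward each side, against 32.2% and 13.8% of all genes. Above a mean of 8, there were 6 members, of which 1 passed toward the stromal and 2 toward the endothelial side, against 40.8% and 14.9%. The bands were chosen after the values were seen.

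**Figure D1:**
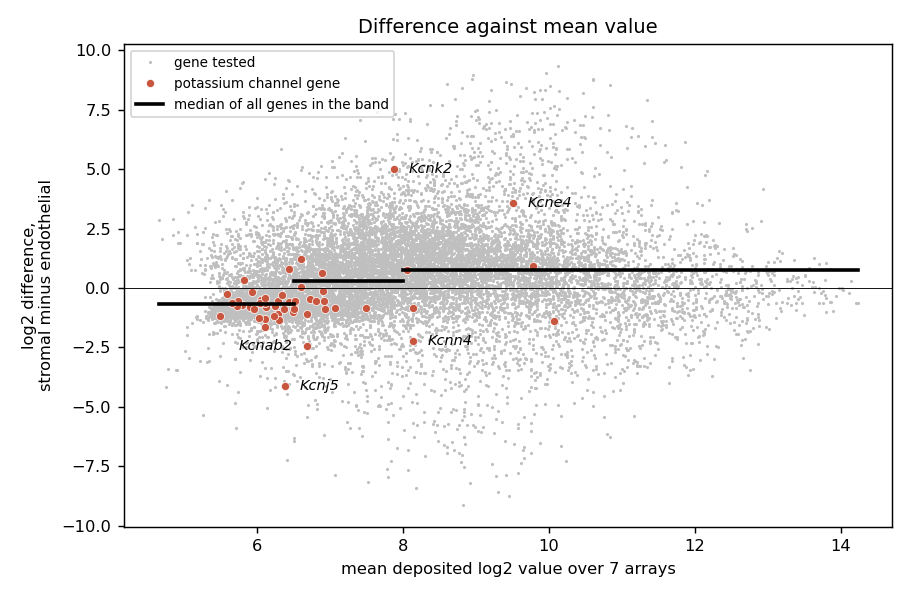
Log2 difference (stromal minus endothelial) against the mean log2 value over the 7 arrays for every gene tested (grey) and the 53 potassium channel genes tested (orange), with black bars at the median of all genes with a mean under 6.5, from 6.5 to 8 and over 8. Most channel genes sit in the lowest band close to its median of -0.66, and Kcnk2, Kcne4, Kcnj5, Kcnab2 and Kcnn4 lie apart from it.

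By class, 1 of 15 tested voltage-gated pore genes, 2 of 3 silent subunit genes, 1 of 7 genes for auxiliary subunits of voltage-gated channels, 4 of 6 calcium- or sodium-activated pore genes, 3 of 9 inward rectifier genes and 1 of 10 K2P genes were higher on the endothelial arrays. The share was 16.1% of all genes tested and 21.4% of those with a mean under 6.5, where most members lie, and in classes this small the counts show no more than which genes passed. Neither of the 2 tested genes for auxiliary subunits of the BK channel passed. On the stromal side stood 1 auxiliary subunit gene, 1 K2P gene and the 1 non-coding RNA that was tested. The stromal share was 30.9% of all genes tested and 10.2% of those with a mean under 6.5.

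**Figure D2:**
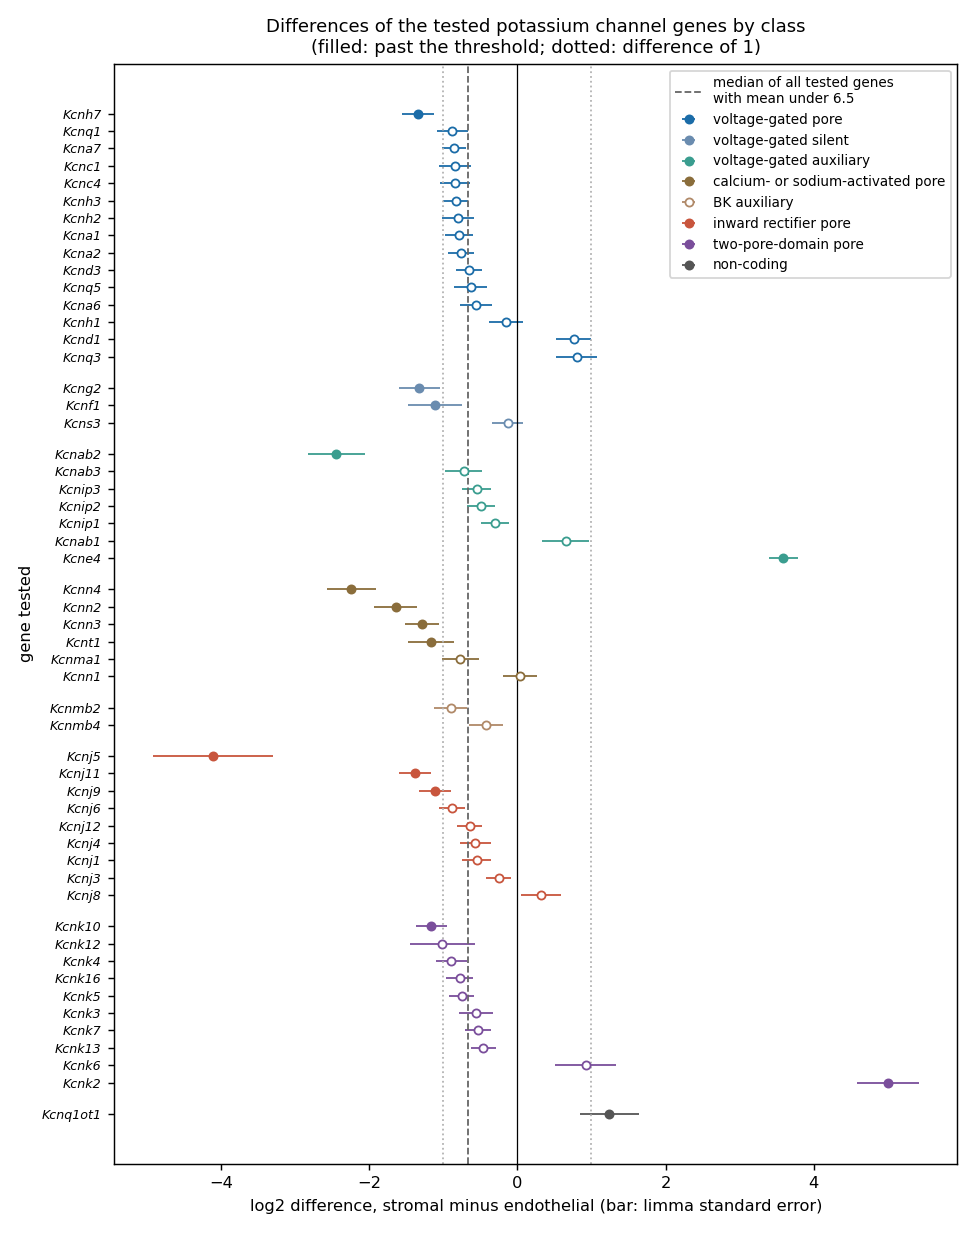
Log2 difference (stromal minus endothelial) of each of the 53 tested members, grouped and coloured by class, with limma standard errors; filled points passed the threshold, dotted lines mark a difference of 1 and the dashed line the median of all tested genes with a mean under 6.5, -0.66. Differences ran from -4.11 for Kcnj5 to 5.0 for Kcnk2, and most open points lie near the dashed line.

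Kcnk2 showed the largest stromal difference among the members. It encodes TREK-1, a K2P channel opened by membrane stretch and lipids. Its values were 8.88, 10.61, 9.91 and 10.67 on stromal 1 to 4 and 4.83, 5.14 and 5.09 on endothelial 1 to 3. The groups did not overlap, stromal 1 was the lowest of its group, and no endothelial array exceeded its 40th percentile. The difference was 5.0 with a standard error of 0.42 (limma adjusted p = 2.57e-05), and it was 5.19 with endothelial 1 alone. No fold is given for Kcnk2 or for other genes whose mean in a population lay below that percentile.

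Kcne4 was 12.1-fold higher on the stromal arrays. It encodes a small membrane-spanning subunit that associates with voltage-gated channels such as those of Kcna1, Kcna3 and Kcnq1 and reduces their current. It lay at 11, 11.33, 10.92 and 10.92 on stromal 1 to 4 and at 7.26, 7.45 and 7.63 on endothelial 1 to 3, so the groups were far apart and each was narrow (SD 0.20, n = 4, and 0.19, n = 3). The difference was 3.59 with a standard error of 0.19 (limma adjusted p = 1.83e-06). The pore genes with which it is known to associate did not share this pattern. Kcna1 and Kcnq1 stood at -0.79 and -0.88 and did not reach a difference of 1, and Kcna3, the lymphocyte channel Kv1.3, stayed below the filter at 5.12 to 5.29 on the stromal and 5.65 to 6.76 on the endothelial arrays. The 4 other KCNE genes on the array, Kcne1, Kcne1l, Kcne2 and Kcne3, also stayed below it.

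The promoters of these 2 stromal genes are shown because they are the protein-coding members that stood highest on the stromal arrays relative to the endothelial ones. Each window runs from 250 bases before to 50 bases after a transcript start, from RefSeq on GRCm38.p6. The Kcnk2 window is chr1:189343304-189343603 on the minus strand, the most CpG-rich of the 4 starts listed for the gene with 33 CpG sites, where the poorest has 3. The arrays do not show which start was used. The Kcne4 window is chr1:78816661-78816960 on the plus strand, with 9 CpG sites. Capitals mark the ETS core described after the endothelial promoters.
Kcnk2: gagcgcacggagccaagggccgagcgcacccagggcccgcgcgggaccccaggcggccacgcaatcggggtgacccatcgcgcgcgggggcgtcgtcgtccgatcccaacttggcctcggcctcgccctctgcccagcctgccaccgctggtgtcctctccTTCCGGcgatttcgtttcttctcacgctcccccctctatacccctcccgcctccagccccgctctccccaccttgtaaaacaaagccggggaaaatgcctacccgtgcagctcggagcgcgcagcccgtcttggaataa
Kcne4: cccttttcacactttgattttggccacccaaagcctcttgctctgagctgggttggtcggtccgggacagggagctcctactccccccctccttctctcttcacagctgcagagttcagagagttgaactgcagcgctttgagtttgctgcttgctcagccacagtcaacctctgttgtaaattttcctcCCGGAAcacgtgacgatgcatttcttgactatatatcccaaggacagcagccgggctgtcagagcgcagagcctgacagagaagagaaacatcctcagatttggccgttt

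**Figure D3:**
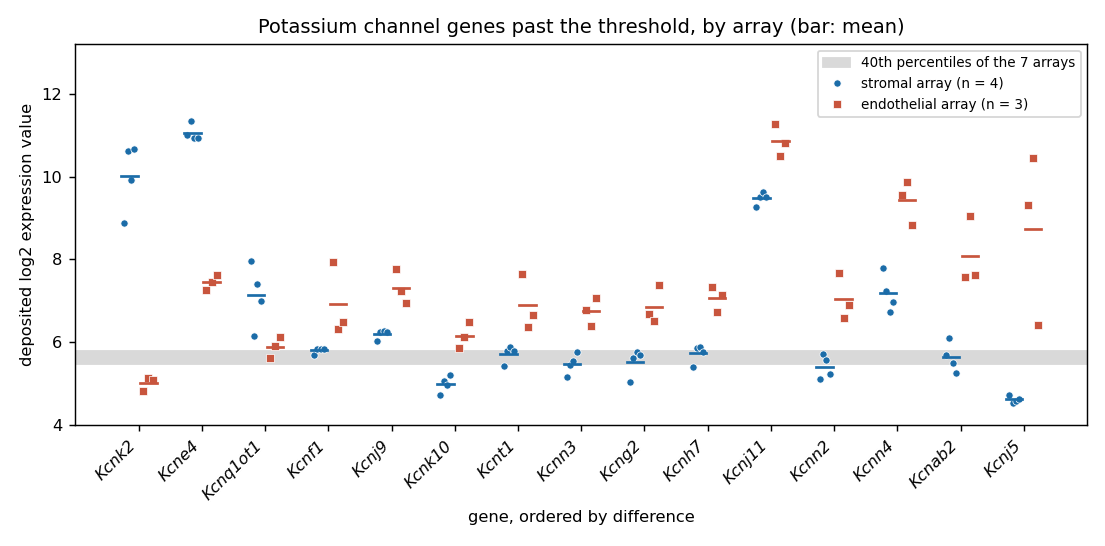
Deposited log2 values of the 15 members past the threshold on each stromal (blue circles, n = 4) and endothelial array (orange squares, n = 3), with group means as bars and the range of the arrays' 40th percentiles in grey, from 5.48 to 5.79. The groups do not overlap for any of the 15 genes, and in Kcnj5 endothelial 3 lies at 6.41 against 9.32 and 10.46 on the other endothelial arrays.

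Among K2P genes, Kcnk10 stood on the other side. It encodes TREK-2, the closest relative of TREK-1. Its values were 4.73, 5.06, 4.97 and 5.22 on stromal 1 to 4 and 5.86, 6.12 and 6.48 on endothelial 1 to 3. The groups did not overlap, but all stromal values lay below the 40th percentile and the endothelial values were only just above it. The difference was -1.16 (limma adjusted p = 0.00195), and -0.87 and short of the threshold with endothelial 1 alone. It was -0.98 after a second quantile normalization and -0.65 after cyclic loess, also short of the threshold. Kcnk4, which encodes the related channel TRAAK, stood at -0.89 and did not reach a difference of 1, but passed after a second quantile normalization (-1.05) and without endothelial 1 (-1.04), and stood at -0.59 with endothelial 1 alone. Kcnk6, which encodes TWIK-2, was bright in both populations, at 10.36, 9.68, 9.90 and 10.76 on stromal 1 to 4 and 9.99, 8.40 and 9.38 on endothelial 1 to 3. Its groups overlapped, and the difference of 0.92 did not pass (limma adjusted p = 0.0743). It was 1.28 and past the threshold without endothelial 1, and 0.18 with endothelial 1 alone. Kcnk12 lay at 7.55 and 7.81 on endothelial 2 and 3 but at 5.84 on endothelial 1, below the stromal range of 5.90 to 6.25. Its difference of -1.01 did not pass (limma adjusted p = 0.0671), it was -1.63 and past the threshold without endothelial 1, and it was 0.21 with endothelial 1 alone. The other 5 tested K2P genes, Kcnk3, Kcnk5, Kcnk7, Kcnk13 and Kcnk16, differed by -0.78 to -0.46. Of these Kcnk3, at -0.56, was -1.03 and past the threshold with endothelial 1 alone.

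The inward rectifiers gave the largest endothelial difference. Kcnj5 encodes GIRK4, a channel opened by G protein beta-gamma subunits. It lay at 4.73, 4.54, 4.59 and 4.62 on stromal 1 to 4 and at 9.32, 10.46 and 6.41 on endothelial 1 to 3. The stromal values were all below the 40th percentile, the groups did not overlap, and endothelial 3 was far below the other endothelial arrays. The difference was -4.11 with a standard error of 0.81 (limma adjusted p = 0.00273). It was -5.27 without endothelial 3, -3.24 without endothelial 2 and -4.70 with endothelial 1 alone, each past the threshold with the genes of the 7-array fit kept. The second probe set of Kcnj5 never exceeded the 40th percentile and differed by -0.58. The megakaryocyte marker mean was level over the endothelial arrays, at 13.84, 13.50 and 13.70. The means of the neutrophil markers (11.86, 12.55 and 9.54), the pan-leukocyte markers (10.78, 11.49 and 10.33), the mast cell and basophil markers (6.46, 7.94 and 5.93) and the B-lineage markers (7.61, 9.51 and 7.52) ran in the same order as Kcnj5. The means of the monocyte and macrophage (6.86, 7.70 and 6.93), T and NK (6.31, 6.63 and 7.18) and erythroid markers (8.29, 6.51 and 6.86) ran in other orders. No part of any of these cells in the result was tested.

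GIRK channels are assemblies of these subunits, in many tissues of GIRK4 with GIRK1. Kcnj3, the gene of GIRK1, stood at 5.41 to 5.54 on the stromal and 5.58 to 5.97 on the endothelial arrays, close to the 40th percentile in both, with a difference of -0.25 (limma adjusted p = 0.228). Its sign was positive, at 0.25, after cyclic loess. Kcnj6, the gene of GIRK2, differed by -0.88. Kcnj9, the gene of GIRK3, passed, at 6.03, 6.26, 6.27 and 6.26 on stromal 1 to 4 and 7.76, 7.23 and 6.95 on endothelial 1 to 3. The difference was -1.11 (limma adjusted p = 0.00292), but -0.89 and short of the threshold without endothelial 1, and -0.71 with the mean of its 4 probe sets. Kcnj1, the renal channel gene next to Kcnj5 on the chromosome, differed by -0.55. The strong inward rectifier genes Kcnj4 and Kcnj12 differed by -0.57 and -0.64.

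Kcnj11 was 2.61-fold higher on the endothelial arrays and clearly above background in both populations. It encodes Kir6.2, the pore of ATP-sensitive potassium channels, which close when cellular ATP is high. Its values were 9.27, 9.51, 9.62 and 9.5 on stromal 1 to 4 and 11.27, 10.49 and 10.82 on endothelial 1 to 3. The groups did not overlap, and the difference was -1.38 with a standard error of 0.22 (limma adjusted p = 9.89e-04). With the mean of its 2 probe sets, the second of which exceeded the 40th percentile on 1 array, the difference was -1.0 and just short of the threshold. The other pore gene of such channels, Kcnj8, encoding Kir6.1, lay at 5.50, 6.51, 5.85 and 5.95 on the stromal and 5.28, 5.76 and 5.87 on the endothelial arrays. Its groups overlapped (difference 0.32, limma adjusted p = 0.319).

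Sulfonylurea receptors surround these pores. Abcc9, the gene of SUR2, lay at 9.48, 9.82, 9.51 and 10.13 on stromal 1 to 4 and at 4.68, 5.28 and 5.11 on endothelial 1 to 3, where it never exceeded the 40th percentile. It reached the filter on stromal arrays alone and so had to differ. Its difference was 4.71 (limma adjusted p = 1.47e-06). Abcc8, the gene of SUR1 and neighbour of Kcnj11, was below the filter, at 4.47 to 4.90 on the stromal and 6.40, 5.58 and 5.71 on the endothelial arrays. Abcc8 exceeded the 40th percentile on 1 endothelial array and on no stromal array.

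**Figure D4:**
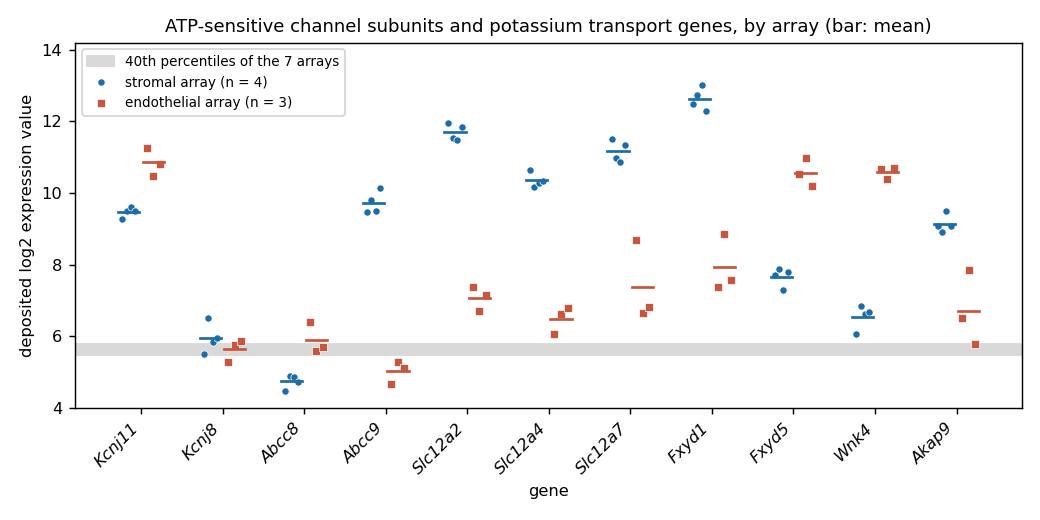
Deposited log2 values of the ATP-sensitive channel subunits (Kcnj11, Kcnj8, Abcc8, Abcc9) and of genes for potassium transport and channel scaffolds on each stromal (blue circles, n = 4) and endothelial array (orange squares, n = 3), with group means as bars and the arrays' 40th percentiles in grey. Abcc9 lies at 9.48 to 10.13 on the stromal arrays and below the grey band on the endothelial arrays, while Kcnj11 lies above 9 on all 7.

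Of the 4 members of the SK and IK family of calcium-activated channels, 3 passed toward the endothelial side. The share was 16.1% of all genes tested and 21.4% of those with a mean under 6.5. A family of 4 genes is too small for the count to show more than which genes passed. Kcnn4 encodes the intermediate-conductance channel of red cells and lymphocytes, known in red cells as the Gardos channel. It was 4.72-fold higher, at 7.80, 7.23, 6.74 and 6.97 on stromal 1 to 4 and 9.56, 9.87 and 8.84 on endothelial 1 to 3. The groups did not overlap, and the difference was -2.24 with a standard error of 0.33 (limma adjusted p = 6.13e-04). Its second probe set also separated the groups, with a difference of -1.17. The neutrophil marker mean, at 10.09, 10, 7.84 and 8.51 on stromal 1 to 4 and 11.86, 12.55 and 9.54 on endothelial 1 to 3, had the same order as Kcnn4 within each group. The pan-leukocyte (10.78, 11.49 and 10.33), B-lineage (7.61, 9.51 and 7.52) and mast cell and basophil means (6.46, 7.94 and 5.93) had that order on the endothelial arrays. The erythroid (6.96, 5.94, 5.51 and 5.93) and T and NK means (5.57, 5.56, 5.27 and 5.41) had the order of Kcnn4 on stromal 1 to 4. On endothelial 1 to 3 both ran in other orders, at 8.29, 6.51 and 6.86 and at 6.31, 6.63 and 7.18. The monocyte and macrophage mean and the megakaryocyte and platelet mean ran in other orders in both groups. The part of these cells in the result was not tested.

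The small-conductance genes Kcnn2 and Kcnn3 were dim. Kcnn2 lay at 5.11, 5.72, 5.57 and 5.23 on stromal 1 to 4 and 7.67, 6.58 and 6.89 on endothelial 1 to 3, and its difference was -1.64 (limma adjusted p = 0.00169). Kcnn3 lay at 5.16, 5.46, 5.54 and 5.76 against 6.78, 6.40 and 7.08, with a difference of -1.28 (limma adjusted p = 0.00172), and cyclic loess took it to -0.91, short of a difference of 1. In both the groups were apart, but the stromal mean lay below the 40th percentile. Kcnn1 lay at 6.43 to 6.86 and 6.33 to 7.04, its groups overlapped, and the difference was 0.04 (limma adjusted p = 0.883), or -0.08 after a second quantile normalization. Kcnt1, the gene of the sodium-activated channel Slack, lay at 5.42, 5.79, 5.89 and 5.80 against 7.64, 6.37 and 6.67. Endothelial 1 was the highest array, and the difference was -1.17 (limma adjusted p = 0.0100). It was -0.80 and short of the threshold without endothelial 1, and -1.91 with endothelial 1 alone. The call of Kcnt1 was also lost with the mean of its 3 probe sets and after cyclic loess. Its other probe sets differed by -0.60 and -0.56, with overlapping groups. The BK channel gene Kcnma1 differed by -0.77, and its auxiliary genes Kcnmb2 and Kcnmb4 by -0.90 and -0.42. Kcnmb2 passed after a second quantile normalization (-1.26), after cyclic loess (-1.03) and without endothelial 2 (-1.10), and Kcnma1 without endothelial 1 (-1.05), while Kcnma1 stood at -0.21 with endothelial 1 alone. Kcnmb1, the smooth-muscle auxiliary gene, was below the filter, at 4.79 to 5.38 and 7.36, 6.32 and 5.72, and would have passed without a filter on dim genes. It was named after its values were seen.

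Most voltage-gated pore genes were dim. Of 22 on the array 15 were tested, and 1 passed. This was Kcnh7, the gene of the ERG3 channel, at 5.41, 5.87, 5.88 and 5.77 on stromal 1 to 4 and 7.33, 6.72 and 7.15 on endothelial 1 to 3. Stromal and endothelial values were apart, and the difference was -1.34 (limma adjusted p = 0.00107). Its relative Kcnh2, the gene of the cardiac ERG1 channel, stood at -0.80. A further 10 genes (Kcna1, Kcna2, Kcna6, Kcna7, Kcnc1, Kcnc4, Kcnd3, Kcnh3, Kcnq1 and Kcnq5) differed by -0.88 to -0.56, none past the threshold. After a second quantile normalization Kcna7 (-1.01), Kcnc1 (-1.22), Kcnc4 (-1.35) and Kcnh3 (-1.41) passed toward the endothelial side, and after cyclic loess Kcnc1 (-1.05), Kcnc4 (-1.27) and Kcnh3 (-1.46) did. Kcnc4 also passed with endothelial 1 alone (-1.11) and without endothelial 2 (-1.03), Kcnh3 with the mean of its probe sets (-1.07), and Kcnq1 without stromal 4 and endothelial 2 (-1.10). Kcnh1 stood at -0.15, or 0.25 after cyclic loess.

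Kcnd1 and Kcnq3 were the voltage-gated pore genes with a positive difference. Kcnd1, the gene of the A-type channel Kv4.1, lay at 8.66, 8.29, 8.29 and 8.25 on stromal 1 to 4 and 7.88, 7.13 and 7.82 on endothelial 1 to 3. These groups did not overlap, and the difference was 0.76 (limma adjusted p = 0.0201), below the size required. It was 0.12 after a second quantile normalization and 0.16 after cyclic loess. Its other 2 probe sets differed by -0.92 and -0.13, so the probe sets do not give a single direction. Kcnq3, a subunit gene of the M-type channel, lay at 6.08, 7.14, 7.09 and 6.81 against 6.12, 5.81 and 6.01. Stromal 1 lay among the endothelial values, and the difference of 0.80 (limma adjusted p = 0.0320) was 1.03 and past the threshold without it.

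Both silent subunit genes that passed are close to the floor of the arrays. Silent subunits form no channel alone and change the gating of the Kv2 channels with which they assemble. Kcng2, the gene of Kv6.2, lay at 5.05, 5.62, 5.77 and 5.70 on stromal 1 to 4 and 6.68, 6.52 and 7.38 on endothelial 1 to 3. The difference was -1.32 (limma adjusted p = 0.00358), and -1.14 and short of the threshold with the hybridisation-control level as a block (limma adjusted p = 0.0525). It was -0.99 after cyclic loess. Kcnf1, the gene of Kv5.1, lay at 5.69, 5.84, 5.83 and 5.85 against 7.95, 6.32 and 6.48. Endothelial 1 set the size of that difference, which was -1.11 (limma adjusted p = 0.0277) and -0.60 without endothelial 1 but -2.15 with endothelial 1 alone, and the call was lost without any single stromal array as well (limma adjusted p from 0.0547 to 0.0663). Kcns3 differed by -0.13, and the other 6 silent genes were below the filter.

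Among genes for auxiliary subunits, Kcnab2 was 5.43-fold higher on the endothelial arrays. It encodes Kv beta-2, a cytoplasmic subunit of Kv1 channels with the fold of an aldo-keto reductase. It lay at 5.69, 6.11, 5.49 and 5.26 on stromal 1 to 4 and 7.57, 9.06 and 7.62 on endothelial 1 to 3. The groups did not overlap, and endothelial 2 was the highest array. The difference was -2.44 with a standard error of 0.39 (limma adjusted p = 0.00102), and -1.95 without endothelial 2. The marker means of B lineage (9.51), neutrophils (12.55), all leukocytes (11.49), mast cells and basophils (7.94) and monocytes and macrophages (7.70) were likewise highest on endothelial 2 of the 3 endothelial arrays. Those of megakaryocytes and platelets (13.50) and erythroid cells (6.51) were lowest there, and that of T and NK lineage (7.18) was highest on endothelial 3. The part of these cells in the result was not tested. The second probe set of Kcnab2 differed by -0.66. The Kv beta genes Kcnab1 and Kcnab3 did not pass, at 0.65 and -0.72. Kcnab1 was 1.14 and past the threshold toward the stromal side with endothelial 1 alone. The Kv1 pore genes Kcna1, Kcna2, Kcna6 and Kcna7 differed by -0.85 to -0.56, none past the threshold.

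The genes of the potassium channel interacting proteins, calcium sensors that assist Kv4 channels, did not pass. Kcnip1, Kcnip2 and Kcnip3 differed by -0.30, -0.49 and -0.55. In Kcnip3 the probe sets disagreed. The set used lay at 6.59 to 6.85 on the stromal and 7.04 to 7.58 on the endothelial arrays, and the other at 6.97 to 7.35 and 5.27 to 6.56, with a difference of 1.03. Each separated the groups, in opposite directions.

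The promoters of the 3 endothelial members with the largest differences are shown beside those of the stromal genes, since these members stood apart from the bulk of the dim genes. The Kcnj5 window is chr9:32344295-32344594 on the minus strand with 10 CpG sites. The Kcnab2 window is chr4:152477500-152477799 on the minus strand with 25 CpG sites, the richest of 3 starts. The Kcnn4 window is chr7:24370013-24370312 on the plus strand with 6 CpG sites.
Kcnj5: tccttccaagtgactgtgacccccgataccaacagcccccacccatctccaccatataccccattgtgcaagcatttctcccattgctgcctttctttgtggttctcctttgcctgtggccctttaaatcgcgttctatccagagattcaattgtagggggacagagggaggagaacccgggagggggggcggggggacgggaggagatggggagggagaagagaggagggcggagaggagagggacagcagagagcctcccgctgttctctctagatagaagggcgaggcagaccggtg
Kcnab2: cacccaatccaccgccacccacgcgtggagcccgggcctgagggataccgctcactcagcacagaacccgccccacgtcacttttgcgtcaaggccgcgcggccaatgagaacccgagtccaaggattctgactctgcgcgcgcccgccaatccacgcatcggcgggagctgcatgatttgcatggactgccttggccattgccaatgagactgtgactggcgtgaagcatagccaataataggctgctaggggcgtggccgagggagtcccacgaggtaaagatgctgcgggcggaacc
Kcnn4: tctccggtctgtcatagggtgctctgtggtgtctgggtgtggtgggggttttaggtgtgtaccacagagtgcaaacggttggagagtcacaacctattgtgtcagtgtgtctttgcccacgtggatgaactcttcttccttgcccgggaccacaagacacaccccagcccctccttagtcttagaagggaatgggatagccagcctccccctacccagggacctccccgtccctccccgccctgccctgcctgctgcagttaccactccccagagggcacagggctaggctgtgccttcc

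The 5 windows were searched on both strands for motifs of blood and stromal regulators. The forms of the GATA motif searched were AGATAA on the one hand and on the other TGATAA, the ETS core was spelled CCGGAA, the TATA box was spelled TATAAA, and the palindromic motif of EBF was searched as well. No match overlapped another. The ETS core occurred in Kcnk2 at -89 on the reverse strand and in Kcne4 at -60 relative to the transcript start, and no motif occurred in the 3 endothelial windows. Of all 32851 windows 14.9% held the ETS core, 11.2% the first and 9.05% the second form of the GATA motif, 13.6% the TATA box and 0.904% the EBF motif. Over the 89 windows of members the shares were 7.87%, 4.49%, 4.49%, 5.62% and 0%. RefSeq gave windows for 64 of the 84 members. The median number of CpG sites was 9 in windows of members and 7 in all windows. A match is only a run of letters and no evidence of binding.

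Kcnq1ot1 is the antisense RNA of the imprinted Kcnq1 domain, known for silencing neighbouring genes on its own chromosome. It lay at 7.97, 6.16, 7.41 and 6.99 on stromal 1 to 4 and 5.61, 5.92 and 6.13 on endothelial 1 to 3. Stromal 2 lay just above the highest endothelial array. The difference was 1.24 (limma adjusted p = 0.0227), and its call was lost without stromal 1 (0.97), without stromal 3 (1.15 with the same probe set) and without endothelial 1 (1.11). With the hybridisation-control level as a block it was 1.52 and not past the threshold (limma adjusted p = 0.0701). Of its 6 probe sets 4 had the same sign, and those that reached the filter differed by 1.24 and 0.92. The antisense RNAs Kcnmb4os1 and Kcnmb4os2 were below the filter.

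The 31 members below the filter differed by -1.32 to 0.67 with a median of -0.56, against -0.58 for all 4198 genes below it. They include the strong inward rectifier gene Kcnj2, at 3.89 to 4.16 on the stromal and 3.96 to 4.44 on the endothelial arrays, and Kcnt2, at 3.49 to 4.13 and 2.83 to 3.45. Values in this range have no firm order.

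Genes that work with these channels or move potassium by other routes were set beside them. Of 39 genes on the partner lists that the array held, 27 were tested, of which 9 passed toward the stromal and 4 toward the endothelial side, with a median difference of 0.19. These counts are near the 30.9% and 16.1% of all genes, and the median equals that of all genes. Abcc9 and Cntnap2 reached the filter on stromal arrays alone. Among channel partners, 3 of 8 passed toward the stromal side, Abcc9 included, and 1 toward the endothelial side. Beside Abcc9 the stromal genes were Akap9, a scaffold of the Kcnq1 channel, at 2.42 (limma adjusted p = 0.00190), and Amigo1, a partner of Kv2 channels, at 1.46 (limma adjusted p = 0.00144). Lrrc26, which encodes an auxiliary BK subunit, stood at -1.13 (limma adjusted p = 0.00256).

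Of 10 chloride cotransporter and kinase genes tested, 4 passed toward the stromal and 2 toward the endothelial side, against 30.9% and 16.1% of all genes. Slc12a2, the gene of the sodium-potassium-chloride cotransporter NKCC1, lay at 11.97, 11.54, 11.47 and 11.85 on stromal 1 to 4 and 7.38, 6.70 and 7.15 on endothelial 1 to 3, which is 24.8-fold higher (limma adjusted p = 1.30e-06). The potassium-chloride cotransporter genes Slc12a4 and Slc12a7, which let potassium leave the cell with chloride, were 14.6-fold and 13.8-fold higher on the stromal arrays (limma adjusted p = 3.60e-06 and 2.65e-04). Slc12a7 lay at 8.70 on endothelial 1 against 6.64 and 6.83. Wnk4, a kinase gene that acts on these cotransporters, was 16.4-fold higher on the endothelial arrays, at 10.68, 10.40 and 10.69 against 6.05 to 6.85 (limma adjusted p = 2.66e-06).

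Of 5 tested genes for subunits of the sodium-potassium pump, which builds the gradient, the regulatory genes differed and the beta subunit genes did not pass. Fxyd1, the gene of phospholemman, was 25.8-fold higher on the stromal arrays, with a mean of 12.63 ± 0.31 (SD, n = 4) and 7.94 ± 0.80 (SD, n = 3) on the endothelial arrays (limma adjusted p = 1.75e-05). Fxyd5 was 7.43-fold higher on the endothelial arrays (10.56 ± 0.39, SD, n = 3, against 7.67 ± 0.26, n = 4, limma adjusted p = 2.43e-05). Atp1b1, Atp1b2 and Atp1b3 differed by -0.57, -0.53 and -0.16. Of 4 other potassium-permeable channel genes tested, Tmem38b, which encodes a channel of intracellular stores, was higher on the stromal arrays by 2.05 (limma adjusted p = 0.00252).

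**Figure D5:**
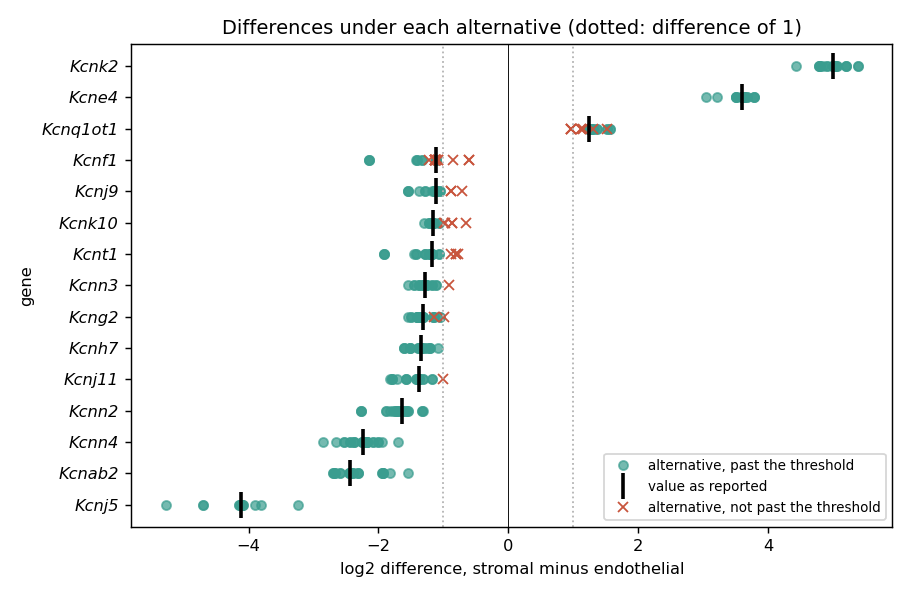
Log2 difference of each of the 15 members past the threshold under every alternative in which it was tested; green points passed the threshold, orange crosses did not, and the black bar is the value as reported. Kcnk2, Kcne4, Kcnab2, Kcnn4 and Kcnh7 passed in all 27 alternatives, and Kcnf1 in 12 of 25. Several alternatives share arrays and settings, so these are not counts of separate checks.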

How the data were processed

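Deposited log2 expression values of 45101 probe sets on 7 arrays were used. Per the submitters' processing notes the authors made them by RMA in Affymetrix Expression Console 1.1, a method of background correction, quantile normalization and probe summary. Which arrays were normalized together is not given in the sources used here. Detection calls were not used. Symbols came from a platform annotation, in which 34945 probe sets had 1 symbol, 932 several and 9160 none, beside 64 controls. All 84 members had their gene identifier in the RefSeq table of GRCm38 (patch 6).

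Of several probe sets for a gene, that with the largest mean over the arrays stood for it. Differences were fitted without covariates by limma 3.58.1 (lmFit, eBayes) in R 4.3.3 on all genes that passed the filter, with Benjamini-Hochberg adjustment. The procedure was tested on simulated data. Precision is limited by the number of arrays. Members, classes, partner and marker lists and 19 alternatives were chosen with earlier results of these data known. A further 8 alternatives, which leave out arrays but keep the genes and probe sets of the 7-array fit, and the bands by mean value were chosen after seeing the data. Named are all members past the threshold, members that belong with them by family or assembly, members whose probe sets disagree, and up to 4 genes of each partner list.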

Additional observations from a re-analysis of the deposited data

Results flagged for a closer look

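The stromal groups of the 53 tested members were examined for an array far from the others of its group, and 4 were found. Chance alone flags about 1 in 20 groups. In each it was stromal 1. Kcnd1 lay at 8.66 there, 0.38 above the next stromal array. Kcnk4 lay at 5.79, 0.43 below the next. Kcnj9 lay at 6.03, 0.23 below the next, and Kcnf1 at 5.69, 0.14 below. Without stromal 1 the difference of Kcnd1 was 0.66, that of Kcnj9 -1.05, still past the threshold, and that of Kcnf1 -1.08, no longer past it (limma adjusted p = 0.0663).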

How the results depend on the processing

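Kcnk2, Kcne4, Kcnab2, Kcnn4 and Kcnh7 passed the threshold in all 27 alternatives, Kcnn2 in the 26 and Kcnj5 in the 20 in which they were tested. Kcnj5 reached the filter on endothelial arrays alone, so its passing where tested was largely fixed in advance. In the other alternatives it fell below the filter. Kcnk2 reached the filter on stromal arrays alone. None of the 15 members past the threshold changed sign. With a filter at the 60th percentile fewer genes were tested, and 5 of 26 members were higher on the endothelial arrays, against 15.6% of all genes. By adjusted p alone the counts were 5 stromal and 37 endothelial for members, against 36.9% and 31.5% of all genes. Partner genes toward the endothelial side numbered 9 by adjusted p alone and 7 without a filter, where the share of all genes was 14.9%. Leaving out each array gave 2 to 3 stromal and 10 to 12 endothelial members, or 11 to 14 with the genes of the 7-array fit kept, and 9 to 10 and 3 to 5 partner genes. In these fits 28.5% to 36% of all genes passed toward the stromal and 13.6% to 18% toward the endothelial side. The median difference of all genes was 0.19 as deposited, -0.13 after a second quantile normalization, with 3 and 16 members past the threshold, and -0.02 after cyclic loess, with 3 and 11. Of all genes 22.9% and 21.5% passed toward the 2 sides after the former, and 23.5% and 17.1% after the latter. Calls toward the stromal arrays made up 65.7% of all calls as deposited, 51.5% after the former and 57.8% after the latter.

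Signs changed only in members not past the threshold. With the mean of probe sets Kcnd1 stood at -0.09, Kcnip3 at 0.24 and Kcns3 at 0.14. Kcnn1 stood at -0.08 after the second quantile normalization, and Kcnh1 and Kcnj3 at 0.25 after cyclic loess. With the hybridisation-control block or endothelial 1 alone Kcnk12 stood at 0.21 and Kcnn1 at -0.43, and without stromal 4 and endothelial 2 Kcnn1 at -0.10. Leaving out single arrays gave ranges of -0.25 to 0.02 for Kcnh1, -0.31 to 0.06 for Kcns3, -0.08 to 0.28 for Kcnn1 (-0.04, -0.07 and -0.08 without stromal 2, endothelial 2 and endothelial 3) and -0.62 to 0.63 for Kcnip3, the last through its other probe set. The causes were not tested.

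With the replicate number as a block 3 and 11 members passed, against 29.8% and 16.3% of all genes, and Kcnf1 was lost (-1.13, limma adjusted p = 0.0580). Deviations of same-numbered samples correlated at 0, 0.03 and 0.12, within a range of -0.08 to 0.12 over all stromal and endothelial pairs. With so few arrays this cannot show whether same-numbered samples share animals or a sort.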

Other observations

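Several members lie next to each other on the chromosome in the RefSeq table. The neighbours Kcnk5 and Kcnk16 differed by -0.75 and -0.78, Kcna1 and Kcna6 by -0.79 and -0.56, and Kcnj6 and Kcnj15, the latter below the filter, by -0.88 and -0.77. Other pairs were Kcnj5 and Kcnj1 (-4.11 and -0.55), Kcnip1 and Kcnmb1 (-0.30 and -1.32), and Kcnj9 and Kcnj10 (-1.11 and -0.36). The rest were Kcnj16 and Kcnj2 (-0.62 and -0.21), Kcna3 and Kcna2 (-0.97 and -0.76), and Kcna5 and Kcna1 (-0.46 and -0.79). The median of all tested genes with a mean under 6.5 was -0.66. Whether other neighbouring dim genes have like values was not tested. Nomo1, on the side of Kcnj11 away from Abcc8, was higher on the endothelial arrays, with a difference of -2.51 (limma adjusted p = 9.60e-06), a larger difference than that of Kcnj11 itself. Neighbours of other members past the threshold passed toward either side, Pdia6, Ctdp1, Fign and Igsf8 toward the stromal and Chd5, Nphp4, Trim36 and Cenpf toward the endothelial. Most of the tested neighbours did not pass, and several neighbours were below the filter. Over all genes tested 47% passed.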
